A study of Mus musculus with 14 samples.

Results

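Heat shock proteins, their J-protein partners and the chaperonins were followed through 3 RNA-seq experiments on CD8+ T cells recovered from mouse E.G7 tumours. The members were the genes of each deposited table whose symbol begins with Hsp, with Dnaja, Dnajb or Dnajc and a number, or with Cct and a number from 2 to 8, pseudogene symbols left out. Of 83 such symbols, 67 reached a mean of at least 1 FPKM (fragments per kilobase of transcript in a library of fixed size) in at least 1 experiment, out of 19959 genes listed in all. The experiment on tumour-infiltrating lymphocytes (TILs) held 63 of these members, and the experiments on Prdm1 and Bcl6 overexpression held 64 each, with 60 passing in all 3.

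The TILs were endogenous CD8+ T cells of Bcl6-RFP mice, sorted by flow cytometry on day 21 after subcutaneous inoculation of E.G7, an ovalbumin-expressing lymphoma line. They were labelled Bcl6+, DN or TIM-3+, and DN is not spelled out. The other cells were OT-I cells, T cells whose transgenic receptor sees an ovalbumin peptide, which were overexpressing Prdm1 or Bcl6 and had been transferred together with control OT-I cells, then sorted from E.G7 tumours on about day 8 after transfer. The controls of the Prdm1 experiment are labelled Prdm1neg and those of the Bcl6 experiment Bcl6neg, and the sources used here do not give the vector, the age of the mice or any pooling of animals. Each of the 7 groups had 2 libraries. Nothing in the labels ties the libraries of a group to separate animals, and p-values below measure the spread between these libraries, which may be technical.

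Chaperones hold unfolded or assembling proteins until they reach their native shape. HSP70 proteins bind short hydrophobic stretches in a cycle driven by ATP, in which J proteins deliver the client and start hydrolysis and exchange factors release the nucleotide. HSP90 proteins act later on kinases, receptors and other near-native clients, while the ring-shaped chaperonins, CCT in the cytosol and HSP60 with its lid HSP10 in mitochondria, enclose a client in a cavity. The heat shock factors drive the cytosolic genes through the heat shock element, and the unfolded protein response of the endoplasmic reticulum (ER) drives BiP, GRP94 and their J proteins through the ER stress response element. In CD8+ T cells the ER set serves the synthesis of secreted and membrane proteins, among them granule proteins and cytokines.

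The promoters of 6 members hold a match to 1 of these 2 control elements, and the 30 bases around each match are printed here because the ER group and the Hspe1 and Hspd1 pair carry the differences described below. RefSeq promoter windows on GRCm38.p6 were found for 69 of the 83 symbols, and the 250 bases before each start were searched on both strands. The heat shock element was searched as GAANNTTCNNGAA and the ER stress response element as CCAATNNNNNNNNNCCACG, with matches in capitals, written 5′ to 3′ on the gene's strand.
Hspe1 at chr1:55088053-55088082, plus strand: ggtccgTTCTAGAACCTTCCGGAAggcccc
Hspd1 at chr1:55088053-55088082, minus strand: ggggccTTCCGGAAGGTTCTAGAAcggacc
Dnajb6 at chr5:29735843-29735872, plus strand: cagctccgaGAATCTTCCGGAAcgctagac
Hspa5 at chr2:34772019-34772048, plus strand: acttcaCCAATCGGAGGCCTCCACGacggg
Hsp90b1 at chr10:86705633-86705662, minus strand: acaagcCCAATCGCAAGGAGCCACGcttcg
Hsp90b1 at chr10:86705528-86705557, minus strand: agagtgCGTGGTGAGGCACGATTGGtgagt
Dnajc3 at chr14:118937821-118937850, plus strand: ccacaaCCAATCAGCGCCAACCACGacccg

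Hspe1 and Hspd1, which encode HSP10 and HSP60, are divergent neighbours, so the same 30 bases stand before both, and they hold 2 overlapping matches to the heat shock element. Annotated starts differ between sources, and these bases, like those of Dnajb6 and Hspa5, lie inside a gene span of the other annotation used here. In the GENCODE M21 annotation Hspd1 spans chromosome 1, 55077835 to 55088243 on the minus strand and Hspe1 spans 55088132 to 55091307 on the plus strand, so the ends of the annotated genes overlap. The heat shock element was found in the windows of 3 of 69 members (4.35%) and of 0.514% of 27025 genes. The ER stress response element was found in 3 of 69 members (4.35%), Hspa5, Hsp90b1 and Dnajc3, and in 0.13% of all genes, with Hsp90b1 holding 1 match in each orientation. ERSE-II, a second ER stress element searched as ATTGGNCCACG, was found in 0 of 69 members and 0.037% of all genes. Only exact matches were sought, so a window without one can still hold an element with a changed letter, or have one further from the start. A match is a description of the letters and not a bound site.

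Chaperones were among the abundant transcripts of these cells. On the per-length FPKM scale, the highest member means in the TILs were 674 for Hsp90ab1, the constitutive cytosolic HSP90, and 658 for Hspa8, the constitutive HSP70, followed by 259.5 for the ER HSP70 Hspa5 (BiP). Hspa8 led in both OT-I experiments, at 1801 FPKM beside Prdm1 overexpression and 1294 FPKM beside Bcl6 overexpression. The stress-inducible Hspa1a stood at 25.01 FPKM in the TILs, 773 in the first and 357 in the second of these. The tables were normalized separately, so levels set across experiments carry no test. The median member stood at 23.1, 21.0 and 18.9 FPKM in the TIL, Prdm1 and Bcl6 experiments, and 4 members (Hspa8, Hsp90ab1, Hspa5 and Hsp90aa1 or, in the Prdm1 experiment, Hspa1a) held 44.1%, 52.9% and 52.7% of all member counts. Just below the filter lay Dnaja4 at 0.981 FPKM in the TILs, and just above it Dnajc6 at 1.20. In the Prdm1 experiment these were Dnajb5 at 0.720 and Dnajc25 at 1.07 FPKM, and in the Bcl6 experiment Dnajb7 at 0.964 and Dnajb5 at 1.51 FPKM.

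Total counts ranged from 18309162 to 22322079 per library. The cells matched their labels in Bcl6 and Havcr2, the gene of TIM-3. Bcl6 measured 429 and 408 CPM in Bcl6+ libraries, 90.8 and 94.9 in DN libraries and 14.9 and 18.2 in TIM-3+ libraries, and 94.2 and 67.6 CPM in the overexpressing and 4.11 and 3.84 in the control libraries of its overexpression experiment. Havcr2 measured 58.9 and 33.3 CPM in Bcl6+ libraries, 202 and 177 in DN libraries and 1309.7 and 1366 in TIM-3+ libraries. Prdm1 itself measured 158 and 195 CPM in the overexpressing and 110.5 and 90.6 in the control libraries of its experiment (log2 fold change 0.81 ± 0.19 (SE), adjusted p = 0.092), so its own increase did not pass the test. The CD8 T cell markers Cd3d, Cd3e, Cd3g, Cd8a, Cd8b1 and Lck were detected in every library and summed to between 4206 and 9200 CPM (counts per 1e+06 counts, scaled by TMM). All 6 were lower in Bcl6+ (5725 to 5735 CPM summed) than in TIM-3+ TILs (9038 to 9200 CPM). Against DN TILs (6555 to 6604 CPM), 4 were lower in Bcl6+ cells and 5 higher in TIM-3+ cells. Markers of other cells also differed between the TIL groups. Erythroid markers summed to 44.7 to 48.7 CPM in Bcl6+, 74.4 to 78.0 in DN and 21.1 to 27.8 in TIM-3+ libraries. In the same order, stromal and endothelial markers summed to 86.6 to 115, 84.9 to 95.1 and 37.9 to 45.96 CPM. Lymphoma and thymocyte markers summed to 14.7 to 20.6, 14.7 to 16.3 and 2.26 to 4.46 CPM. Dendritic cell markers summed to 23.6 to 44.5, 64.995 to 77.5 and 55.4 to 60.7 CPM. Macrophage and monocyte markers are given beside Hspb1. Their part in the TIL differences below was not tested. In bulk RNA such as this, fewer cells of a type and less RNA per cell cannot be told apart.

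**Figure D1:**
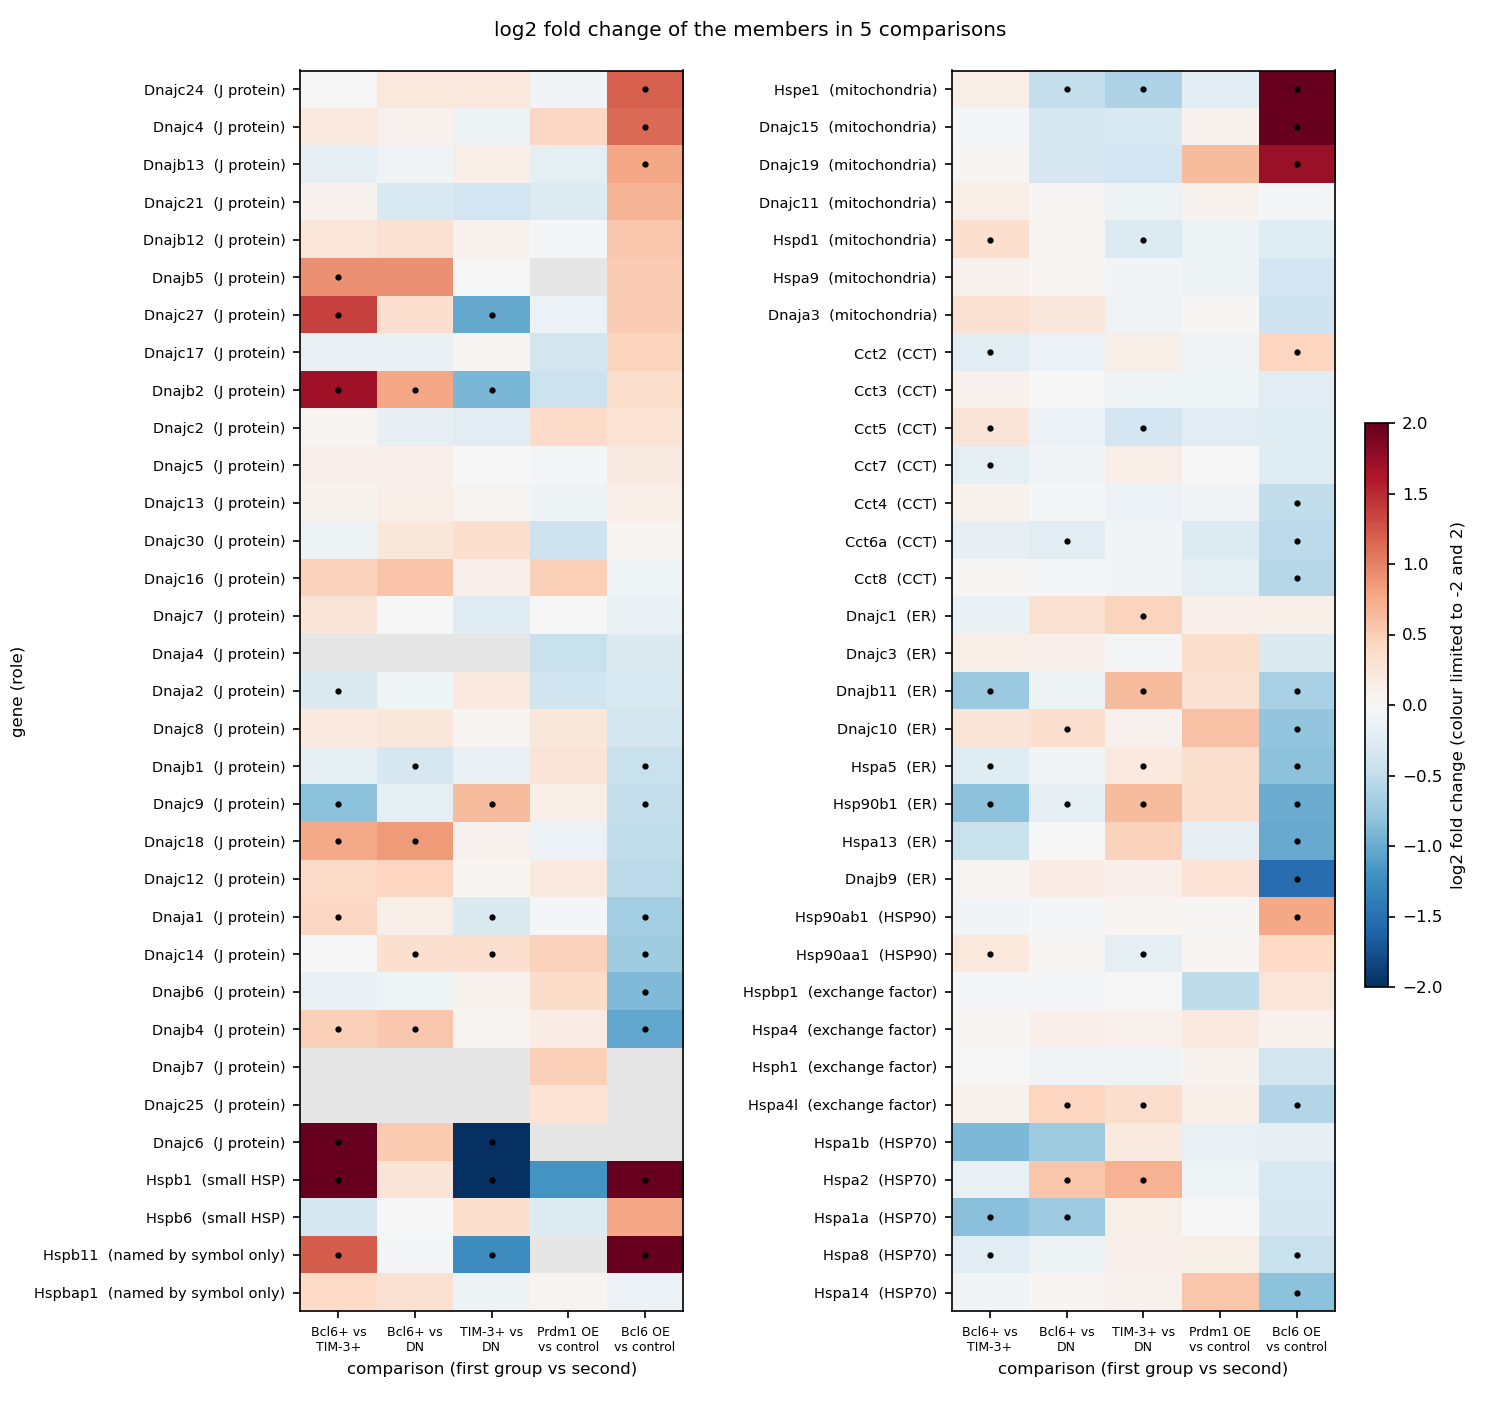
Log2 fold change of the members, 1 left out (rows, with the role of each) in the 5 comparisons (columns), coloured red where higher and blue where lower in the first group and limited to -2 and 2, with a dot where the edgeR adjusted p was under 0.05 and grey where the gene did not pass the filter. Of all members, between 12 and 29 were called in each TIL comparison and in the Bcl6 overexpression comparison, and none in the Prdm1 overexpression comparison. From left to right, 33.3%, 19%, 28.6%, 0% and 45.3% of members were called, beside 38.6%, 14.2%, 28.2%, 1.36% and 48.8% of all genes.

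The first comparison set Bcl6+ against TIM-3+ TILs, a contrast of cells that express Bcl6 with cells that carry an exhaustion receptor. Chaperones did not move as 1 block between them. TIM-3+ cells held more of the ER chaperones Hsp90b1 and Dnajb11, more Hspa1a and more of the histone-linked J protein Dnajc9, and Bcl6+ cells held more Hspd1, Hsp90aa1, Dnaja1, Dnajb2, Dnajb4, Dnajc6 and Hspb1. In all, 21 of 63 members differed, 12 higher and 9 lower in Bcl6+ cells, against 38.6% of all 9748 genes tested (19.1% higher and 19.6% lower). The members' median log2 fold change was 0.057 and that of all genes 0.011. Other settings moved this balance: with total counts in place of TMM, 29 members were higher and 4 lower (all genes 2948 higher, 1268 lower, median 0.20), and with limma on TPM values 30 and 4 (all genes 3455 and 1123, median 0.26). TMM factors were 0.924 and 0.918 in the TIM-3+ libraries and 1.03 to 1.05 in the other TIL libraries.

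Against DN cells, 12 of 63 members differed in Bcl6+ cells, 7 higher and 5 lower, where 14.2% of all genes were called (6.49% higher and 7.69% lower). TIM-3+ cells differed from DN cells in 18 of 63 members, 8 higher and 10 lower, where 28.2% of all genes were called (14.9% higher and 13.2% lower). With total counts the latter became 4 higher and 20 lower (all genes 861 and 2217, median -0.18), and with TPM 4 and 21 (all genes 819 and 2275, median -0.19). The 3 TIL comparisons share libraries, so their values stand side by side and do not support one another. When 1 library was left out, which leaves a group whose lone library is assumed to vary like the others, the count for Bcl6+ against DN cells fell to 6 without Bcl6+ replicate 1, 2 without DN replicate 1 and 4 without DN replicate 2. For TIM-3+ against DN cells it fell to 11 without DN replicate 1 and 10 without DN replicate 2.

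Among the ER chaperones, Hsp90b1 (GRP94, the HSP90 of the ER, chromosome 10, 86690209 to 86705509, minus strand) separated all 3 populations. It measured 495 and 504 CPM in Bcl6+ libraries, 557 and 577 in DN libraries and 874 and 887 in TIM-3+ libraries. No library of a population overlapped with another population's. It was lower in Bcl6+ than in TIM-3+ cells (log2 fold change -0.82 ± 0.056 (SE), adjusted p = 5.5e-08) and higher in TIM-3+ cells than in DN cells (log2 fold change 0.63 ± 0.056 (SE), adjusted p = 1.4e-06). The gap between Bcl6+ and DN cells was small (-0.18), and its call was lost when any 1 library was left out. Dnajb11, the ER J protein ERdj3 that works with BiP, measured 141 and 126 CPM in Bcl6+ libraries, 140.2 and 146 in DN libraries and 212 and 233 in TIM-3+ libraries. Both TIM-3+ libraries lay above the 4 others (log2 fold change -0.74 ± 0.10 (SE), adjusted p = 3e-05 for Bcl6+ against TIM-3+ cells, and 0.64, adjusted p = 0.00019 for TIM-3+ against DN cells). Hspa5 (BiP, chromosome 2, 34771970 to 34777547, plus strand) measured 1161 and 990.0 CPM in Bcl6+ libraries, 1113 and 1112 in DN libraries and 1225 and 1315 in TIM-3+ libraries. The TIM-3+ libraries were the highest, but the gap was small (-0.24, adjusted p = 0.012 for Bcl6+ against TIM-3+ cells, and 0.19, adjusted p = 0.048 for TIM-3+ against DN cells), and with TPM the first of these values was 0.018. Dnajc1, a membrane J protein of the ER, was higher in TIM-3+ cells than in DN cells (0.44, adjusted p = 0.018), and Dnajc10, the disulfide reductase ERdj5, was higher in Bcl6+ than in DN cells (0.34, adjusted p = 0.042).

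The members given an ER role were Hspa5, Hsp90b1, Hspa13, Dnajb9, Dnajb11, Dnajc1, Dnajc3 and Dnajc10. Other J proteins were counted apart wherever they sit in the cell, among them Dnajc18, which was higher in Bcl6+ than in TIM-3+ cells. Of the 8 ER members tested, 3 were thus lower in Bcl6+ than in TIM-3+ cells and none higher. In TIM-3+ against DN cells, 4 were higher and none lower. Of all genes, 19.6% were lower in the first comparison and 14.9% higher in the second. Dnajb9 (ERdj4) and Dnajc3 (p58IPK), an inhibitor of the kinase PERK, were called in no TIL comparison. Dnajb9 measured 77.5 and 78.1 CPM in Bcl6+ libraries, 64.6 and 75.7 in DN libraries and 77.9 and 72.5 in TIM-3+ libraries, and Dnajc3 measured 203 and 185 CPM in Bcl6+ libraries, 169 and 193 in DN libraries and 176 and 182 in TIM-3+ libraries. These ER calls were lost, with the log2 fold change then found, when 1 library was left out: for Bcl6+ against TIM-3+ cells Hspa5 (-0.13 without Bcl6+ replicate 2, -0.19 without TIM-3+ replicate 2); for TIM-3+ against DN cells Hspa5 (0.19 without DN replicate 1, 0.19 without DN replicate 2, 0.14 without TIM-3+ replicate 2) and Dnajc1 (0.35 without DN replicate 2, 0.41 without TIM-3+ replicate 1); for Bcl6+ against DN cells Hsp90b1 (-0.17 without Bcl6+ replicate 1, -0.19 without Bcl6+ replicate 2, -0.21 without DN replicate 1, -0.16 without DN replicate 2, -0.18 without TIM-3+ replicate 1, -0.18 without TIM-3+ replicate 2) and Dnajc10 (0.32 without Bcl6+ replicate 1, 0.36 without Bcl6+ replicate 2, 0.39 without DN replicate 1, 0.29 without DN replicate 2).

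Most called genes of the wider ER folding and stress response list were on the same side. Of all genes, 14.9% were higher and 13.2% lower in TIM-3+ than in DN cells. The shares were 19.1% and 19.6% in Bcl6+ against TIM-3+ cells and 6.49% and 7.69% in Bcl6+ against DN cells. Of 18 listed genes, 9 were higher and 1 lower in TIM-3+ than in DN cells. In Bcl6+ cells 1 was higher and 7 lower than in TIM-3+ cells, and 1 was higher and 0 lower than in DN cells. The higher ones in TIM-3+ against DN cells included Calr, the lectin chaperone calreticulin (0.56, adjusted p = 8.2e-06), the disulfide isomerases Pdia3 (0.36, adjusted p = 7.3e-05) and P4hb (0.40, adjusted p = 0.00039), and Sdf2l1, a partner of Dnajb11 (0.57, adjusted p = 0.0032). Herpud1, which helps ER-associated degradation, was lower (-0.25, adjusted p = 0.034). Over the same libraries, TIM-3+ cells exceeded DN cells in 15 of 15 proliferation genes, whose summed level was 4633 to 4749 CPM in TIM-3+, 2394 to 2447 in DN and 2005 to 2081 in Bcl6+ libraries. The part of proliferation in the ER values was not tested.

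**Figure D2:**
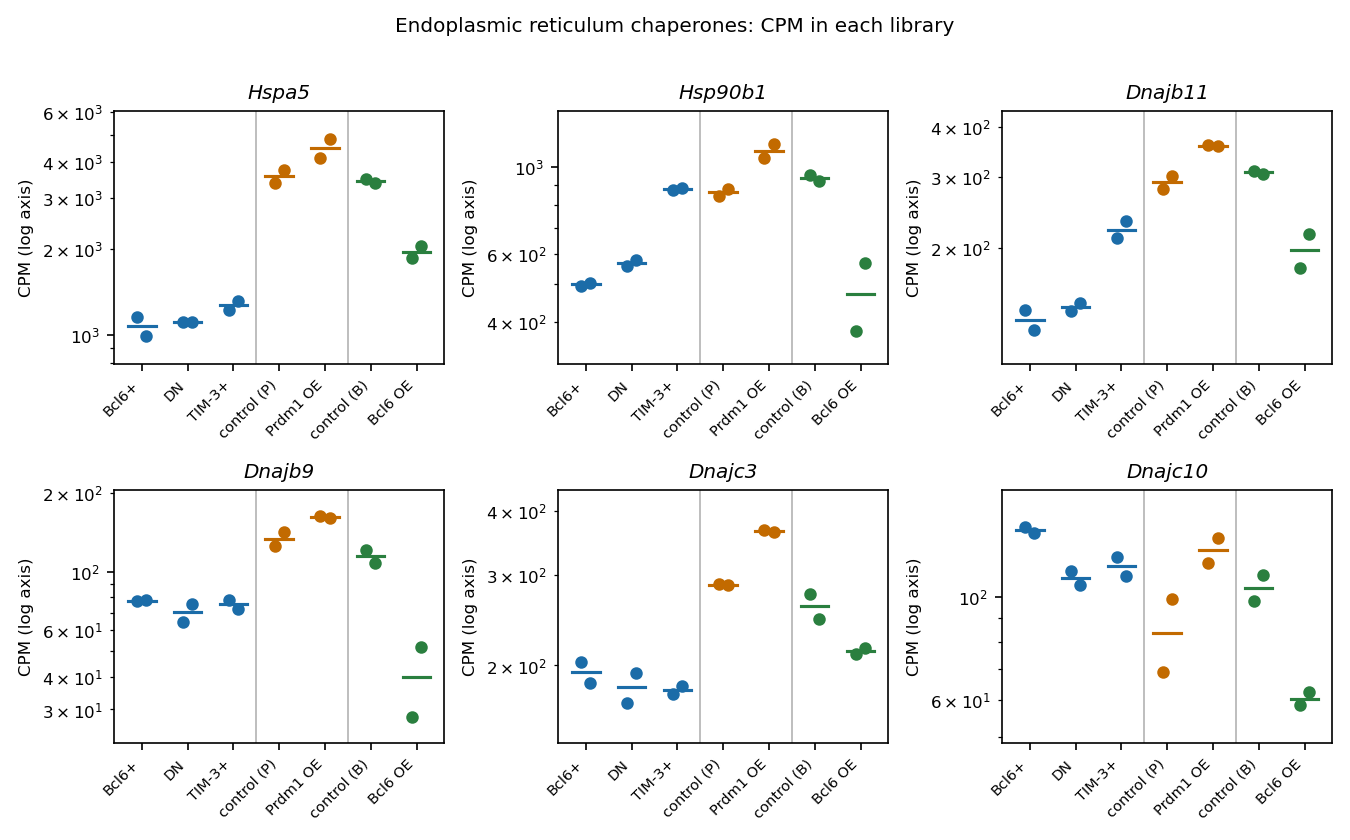
CPM (log axis) of 6 ER chaperones in each library, with points for the 2 libraries of a group and bars for their mean; control (P) and control (B) are the controls of the Prdm1 and Bcl6 experiments and OE is overexpressing. Hsp90b1 and Dnajb11 were highest in TIM-3+ TILs, and Hspa5, Hsp90b1, Dnajb11, Dnajb9 and Dnajc10 were lower in Bcl6-overexpressing than in control OT-I cells in both libraries.

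The cytosolic HSP70 and HSP90 genes split by member. Hspa1a, the heat-inducible HSP70 (chromosome 17, 34969190 to 34972156, minus strand), measured 53.3 and 51.9 CPM in Bcl6+ libraries, 88.4 and 84.8 in DN libraries and 94.01 and 94.4 in TIM-3+ libraries. Bcl6+ libraries lay below all 4 others (log2 fold change -0.84 ± 0.12 (SE), adjusted p = 7.8e-05 against TIM-3+ cells, and -0.72, adjusted p = 0.00092 against DN cells). Hspa1b is a near-identical neighbour, and how its reads were divided is uncertain: it held 3.62 to 6.55% of the pair's counts in the TILs. Hspa8, the constitutive HSP70, measured 2895 and 2624 CPM in Bcl6+ libraries, 2881 and 3053 in DN libraries and 3253 and 3141 in TIM-3+ libraries and was lower in Bcl6+ than in TIM-3+ cells (-0.21, adjusted p = 0.0032), a difference of -0.026 with total counts and 0.048 with TPM. Hspa2, an HSP70 best known from germ cells, measured 42.5 and 41.97 CPM in Bcl6+ libraries, 28.4 and 29.5 in DN libraries and 45.4 and 47.9 in TIM-3+ libraries, so that DN cells were the low group (0.55, adjusted p = 0.035 for Bcl6+ and 0.69, adjusted p = 0.0052 for TIM-3+ cells). Leaving out 1 library ended the Hspa2 calls for Bcl6+ against DN cells (0.54 without Bcl6+ replicate 1, 0.56 without Bcl6+ replicate 2, 0.52 without DN replicate 1, 0.57 without DN replicate 2) and for TIM-3+ against DN cells (0.66 without DN replicate 1).

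Hsp90aa1, the inducible cytosolic HSP90, measured 1006 and 969 CPM in Bcl6+ libraries, 966 and 977 in DN libraries and 848 and 851 in TIM-3+ libraries and was lower in TIM-3+ than in Bcl6+ cells (log2 fold change 0.22 ± 0.050 (SE), adjusted p = 0.0035) and DN cells (-0.19, adjusted p = 0.01). Its constitutive paralog Hsp90ab1 measured 1993 and 2184 CPM in Bcl6+ libraries, 2109 and 2114 in DN libraries and 2222 and 2137 in TIM-3+ libraries, and no TIL comparison called it. The 95% interval of its log2 fold change was -0.16 to 0.041 for Bcl6+ against TIM-3+ cells, where total counts gave 0.13 and TPM 0.20 against -0.061 with TMM. Among the exchange factors, which release ADP from HSP70, Hspa4l was higher in Bcl6+ (0.43, adjusted p = 0.023) and TIM-3+ (0.36, adjusted p = 0.034) than in DN cells, while Hspa4, Hsph1 and Hspbp1 were not called. The Hsp90aa1 call for TIM-3+ against DN cells was lost when 1 library was left out (-0.20 without DN replicate 1, -0.19 without DN replicate 2, -0.19 without TIM-3+ replicate 1). So were the Hspa4l calls for Bcl6+ cells (0.40 without Bcl6+ replicate 2, 0.39 without DN replicate 1, 0.47 without DN replicate 2) and for TIM-3+ cells (0.32 without DN replicate 1, 0.40 without DN replicate 2, 0.31 without TIM-3+ replicate 1, 0.41 without TIM-3+ replicate 2).

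The transcription factors of the heat shock response were measured beside their targets. Hsf2 measured 86.8 and 95.7 CPM in Bcl6+ libraries, 43.4 and 48.3 in DN libraries and 24.2 and 33.01 in TIM-3+ libraries, in the order Bcl6+, DN, TIM-3+ with no overlap (log2 fold change 1.67 ± 0.17 (SE), adjusted p = 3.1e-06 for Bcl6+ against TIM-3+ cells), and Hsf1 was higher in Bcl6+ than in TIM-3+ cells (0.41, adjusted p = 0.0086). Bag2 and Bag3, exchange factors that pair HSP70 with degradation, were higher in Bcl6+ than in TIM-3+ cells (0.98, adjusted p = 0.0019 and 0.95, adjusted p = 0.0025). Of the list of exchange factors and the HSP70-linked ubiquitin ligase CHIP, 3 were higher and 0 lower in that comparison, and of the HSP90 cochaperones 3 were higher and 3 lower. Of all genes, 19.1% were higher and 19.6% lower there. Immediate early and dissociation genes, a sign of handling stress, went both ways, with 6 of 14 higher and 5 lower in Bcl6+ than in TIM-3+ cells and a summed level of 9656 to 9762 against 7867 to 8091 CPM. The part of handling in the Hspa1a difference was not tested.

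In mitochondria, HSP60 and its HSP10 lid did not follow each other. Hspd1 measured 651 and 670.2 CPM in Bcl6+ libraries, 647 and 627 in DN libraries and 527 and 526 in TIM-3+ libraries and was the lowest in TIM-3+ cells (log2 fold change 0.33 ± 0.057 (SE), adjusted p = 0.0004 for Bcl6+ against TIM-3+, and -0.28, adjusted p = 0.0023 for TIM-3+ against DN cells). Hspe1 measured 76.6 and 81.7 CPM in Bcl6+ libraries, 114 and 107 in DN libraries and 66.9 and 77.1 in TIM-3+ libraries, with DN libraries above all 4 others (-0.48, adjusted p = 0.017 for Bcl6+ and -0.62, adjusted p = 0.0018 for TIM-3+ against DN cells). The Bcl6+ against DN call on Hspe1 was lost when 1 library was left out (-0.43 without Bcl6+ replicate 1, -0.43 without DN replicate 1, -0.52 without DN replicate 2). Hspa9, the mitochondrial HSP70 mortalin, and the J proteins Dnaja3, Dnajc11, Dnajc15 and Dnajc19 were called in no TIL comparison. All 7 members given a mitochondrial role, those just named, had negative values in TIM-3+ against DN cells, 2 of them called, where 13.2% of all genes were lower. Of the 5 genes of the mitochondrial quality control list, 1 was higher in Bcl6+ than in TIM-3+ cells and none lower. Of all genes, 19.1% were higher and 19.6% lower in that comparison.

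The CCT ring moved little. Cct5 measured 505 and 527 CPM in Bcl6+ libraries, 562 and 556 in DN libraries and 446 and 414 in TIM-3+ libraries, lower in TIM-3+ than in Bcl6+ (0.26, adjusted p = 0.0047) and DN cells (-0.38, adjusted p = 0.00049). Cct2 (-0.23, adjusted p = 0.037) and Cct7 (-0.19, adjusted p = 0.024) went the other way in Bcl6+ against TIM-3+ cells, but their values were -0.047 and 0.0013 with total counts and 0.028 and 0.076 with TPM. Cct6a was lower in Bcl6+ than in DN cells (-0.21, adjusted p = 0.046), and Tcp1, which encodes CCT subunit 1 and lies outside the symbol rule, was lower in Bcl6+ than in TIM-3+ cells (-0.30, adjusted p = 0.015). Cct3, Cct4 and Cct8 were called in no TIL comparison. Leaving out 1 library ended the Bcl6+ against TIM-3+ calls in Cct2 (-0.21 without Bcl6+ replicate 1, -0.25 without Bcl6+ replicate 2, -0.19 without TIM-3+ replicate 2), Cct5 (0.21 without TIM-3+ replicate 2) and Cct7 (-0.17 without Bcl6+ replicate 1, -0.19 without TIM-3+ replicate 1, -0.19 without TIM-3+ replicate 2), and the Bcl6+ against DN call in Cct6a (-0.17 without Bcl6+ replicate 1, -0.24 without DN replicate 1, -0.19 without DN replicate 2, -0.22 without TIM-3+ replicate 1, -0.22 without TIM-3+ replicate 2).

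J proteins went both ways, some of them with wide differences. Dnajb2, a J protein that sorts ubiquitinated clients to the proteasome, measured 59.5 and 53.3 CPM in Bcl6+ libraries, 27.6 and 38.5 in DN libraries and 15.8 and 19.1 in TIM-3+ libraries, a graded fall from Bcl6+ to TIM-3+ cells (log2 fold change 1.69 ± 0.21 (SE), adjusted p = 1.7e-05 between the ends). Dnajc6 (auxilin), which helps to uncoat clathrin vesicles, measured 18.4 and 6.06 CPM in Bcl6+ libraries, 8.39 and 8.58 in DN libraries and 2.07 and 1.72 in TIM-3+ libraries; its Bcl6+ libraries lay far apart, and Bcl6+ and TIM-3+ libraries did not overlap (log2 fold change 2.69 ± 0.51 (SE), adjusted p = 0.00081). Dnajc27, a RAB-like GTPase with a J domain, measured 19.3 and 32.6 CPM in Bcl6+ libraries, 18.9 and 21.96 in DN libraries and 12 and 8 in TIM-3+ libraries (1.37, adjusted p = 0.0025 for Bcl6+ against TIM-3+ cells). Dnaja1, a main cytosolic partner of Hspa8, measured 439 and 438 CPM in Bcl6+ libraries, 389 and 418 in DN libraries and 317 and 341 in TIM-3+ libraries, the lowest in TIM-3+ cells (log2 fold change 0.42 ± 0.070 (SE), adjusted p = 0.00031 for Bcl6+ against TIM-3+ and -0.30, adjusted p = 0.0058 for TIM-3+ against DN cells). Dnajb4, a heat-inducible relative of HSP40, was the highest in Bcl6+ cells at 126 and 129.6 CPM, with 96.3 and 80.3 in DN and 86.04 and 97.5 in TIM-3+ cells (0.48, adjusted p = 0.0068 against TIM-3+ and 0.53, adjusted p = 0.0088 against DN cells).

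Dnajc9, a histone chaperone that recruits HSP70 to histones H3 and H4, ran the opposite way at 234 and 211 CPM in Bcl6+ libraries, 249 and 258 in DN libraries and 390.4 and 399.9 in TIM-3+ libraries. Its TIM-3+ libraries lay above all 4 others (log2 fold change -0.83 ± 0.077 (SE), adjusted p = 1.2e-06 for Bcl6+ against TIM-3+, and 0.64, adjusted p = 2.6e-05 for TIM-3+ against DN cells), in the same libraries in which all 15 proliferation genes were higher, and the part of proliferation was not tested. Dnajb1 (HSP40), the inducible J partner of HSP70, measured 262 and 262 CPM in Bcl6+ libraries, 339.9 and 321 in DN libraries and 306 and 287 in TIM-3+ libraries and was lower in Bcl6+ than in DN cells (-0.33, adjusted p = 0.0068). Dnajc18 measured 37.1 and 38.01 CPM in Bcl6+ libraries, 18.8 and 22.99 in DN libraries and 22.1 and 22.1 in TIM-3+ libraries, the highest in Bcl6+ cells (0.77, adjusted p = 0.0077 against TIM-3+ and 0.85, adjusted p = 0.011 against DN cells). Dnajc14 was the lowest in DN cells, at 149 and 140.3 CPM in Bcl6+ libraries, 115 and 117 in DN libraries and 139.8 and 149 in TIM-3+ libraries (0.32, adjusted p = 0.041 for Bcl6+ against DN cells). Dnaja2 (-0.28, adjusted p = 0.021) and Dnajb5 (0.91, adjusted p = 0.043) completed the calls between Bcl6+ and TIM-3+ cells. In all, 7 of 26 J proteins were higher and 2 lower in Bcl6+ than in TIM-3+ cells, beside 19.1% higher and 19.6% lower of all genes. Without 1 library, calls were lost between Bcl6+ and TIM-3+ cells in Dnajb4 (0.38 without TIM-3+ replicate 1), Dnajb5 (0.64 without Bcl6+ replicate 1, 0.92 without DN replicate 1, 0.91 without DN replicate 2, 0.64 without TIM-3+ replicate 1) and Dnaja2 (-0.19 without Bcl6+ replicate 2, -0.23 without TIM-3+ replicate 2). Between Bcl6+ and DN cells they were lost in Dnajb1 (-0.29 without DN replicate 1), Dnajb4 (0.41 without DN replicate 2), Dnajc14 (0.27 without Bcl6+ replicate 1, 0.36 without Bcl6+ replicate 2, 0.31 without DN replicate 1, 0.33 without DN replicate 2) and Dnajc18 (0.71 without DN replicate 1). Dnajc14 was also called between TIM-3+ and DN cells (0.32, adjusted p = 0.025), a call lost when 1 library was left out (0.30 without DN replicate 1, 0.33 without DN replicate 2, 0.27 without TIM-3+ replicate 2). The calls of other J proteins described above were lost in Dnajb2 (0.69 without Bcl6+ replicate 1, 0.56 without DN replicate 1) for Bcl6+ against DN cells, and in Dnaja1 (-0.24 without DN replicate 2, -0.24 without TIM-3+ replicate 1), Dnajb2 (-0.66 without DN replicate 2) and Dnajc27 (-1.13 without DN replicate 1, -0.92 without DN replicate 2, -0.77 without TIM-3+ replicate 2) for TIM-3+ against DN cells.

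The small heat shock protein Hspb1 (HSP27), which binds unfolded proteins without ATP, was low throughout, at 4.34 and 5.12 CPM in Bcl6+ libraries, 3.79 and 4.10 in DN libraries and 0.885 and 0.785 in TIM-3+ libraries. Both TIM-3+ libraries were below 1 CPM (log2 fold change 2.49 ± 0.52 (SE), adjusted p = 0.0016 for Bcl6+ against TIM-3+, and -2.23, adjusted p = 0.005 for TIM-3+ against DN cells). Hspb11, which despite its symbol encodes the intraflagellar transport protein IFT25, measured 10.3 and 11.5 CPM in Bcl6+ libraries, 13.1 and 9.28 in DN libraries and 5.12 and 4.32 in TIM-3+ libraries and was higher in Bcl6+ than in TIM-3+ cells (1.21, adjusted p = 0.015). Hspb6 differed more between the Bcl6+ libraries (0.715 and 10.6 CPM) than between groups. Macrophage and monocyte markers were higher in Bcl6+ than in TIM-3+ cells for 7 of 7 tested, with 236 to 267 CPM in Bcl6+, 146 to 149 in DN and 45.3 to 64.6 in TIM-3+ libraries, the same order as Hspb1, and their part in the Hspb1 difference was not tested. The Hspb11 call was lost when 1 library was left out (1.09 without TIM-3+ replicate 2), as was that for TIM-3+ against DN cells at -1.25, adjusted p = 0.017 (-0.98 without DN replicate 1, -1.13 without TIM-3+ replicate 2).

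Prdm1-overexpressing OT-I cells were then compared with their controls, a contrast that asks what an excess of the repressor Blimp-1 changes. No chaperone passed the test in the fit without pairing: 0 of 64 members were called, against 1.36% of all 9947 genes (1.16% or 115 genes higher, 0.201% or 20 genes lower). Without adjustment 8 members had p under 0.05 with edgeR, DESeq2 called 0 members, limma-trend called 0 on FPKM and 1 on TPM (Hspb1, lower). With the replicate number as a block 1659 genes and 5 members were called. Of these, Dnajc10 (0.61, adjusted p = 0.01), Hspa14 (0.56, adjusted p = 0.0041), Dnajc14 (0.46, adjusted p = 0.045) and Hspa5 (0.32, adjusted p = 0.022) were higher. Hspb1 (-1.22, adjusted p = 0.037) was lower. Same-numbered libraries deviated together here (correlation 0.323 across genes). The cells were transferred together, but the labels do not say that a number marks a shared animal. Over all genes the calls split 174 higher and 120 lower with total counts, 354 and 232 with DESeq2 and 340 and 269 with TPM. The median of the members was 0.002 and that of all genes 0.023 on the log2 scale. The number of genes called was 7 without control replicate 1, 3 without control replicate 2 and 643 without overexpressing replicate 1.

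The members given an ER role were nearly all on the higher side, with 7 of 8 positive and a median log2 fold change of 0.31, and none called. Hspa5 measured 4154 and 4844 CPM in the overexpressing and 3403 and 3774 in the control libraries, which did not overlap (log2 fold change 0.33 ± 0.16 (SE), adjusted p = 0.33, 95% interval -0.057 to 0.71). Hsp90b1 measured 1057 and 1148 CPM in the overexpressing and 843 and 882 in the control libraries (0.35, adjusted p = 0.26). Dnajc3 measured 367 and 364 CPM in the overexpressing and 288 and 286 in the control libraries, close pairs on either side (0.35, adjusted p = 0.25). Dnajb11 (0.30, adjusted p = 0.32), Dnajb9 (0.28, adjusted p = 0.39) and Dnajc10 (0.59, adjusted p = 0.21) had like values, and Hspa13 was the one negative member (-0.16, adjusted p = 0.73). Of the 18 ER folding and stress response genes none was called in this experiment.

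Hspa14, an HSP70 of the ribosome, had the smallest p of all members. It measured 389 and 384 CPM in the overexpressing and 248 and 278 in the control libraries (log2 fold change 0.55 ± 0.15 (SE), adjusted p = 0.12, unadjusted p = 0.00734). All 7 CCT subunits had negative values, from -0.27 to -0.01, none of them called. The abundant cytosolic members were close to 0, with Hsp90ab1 at 0.022 (95% interval -0.33 to 0.37), Hspa8 at 0.12 (-0.27 to 0.51) and Hspa1a at 0.013 (-0.36 to 0.39). Hspb1 measured 6.77 and 2.83 CPM in the overexpressing and 15.1 and 6.94 in the control libraries, with pairs that spread as widely as the groups differed (-1.20, adjusted p = 0.31). These intervals leave room for changes of a size that the TIL comparisons called, so the test does not show that the members were alike. Across genes, the log2 fold change fell with the GC content of the transcript (Spearman -0.28 over 9820 genes and -0.352 over 62 members, which share the 4 libraries), and its part in the ER values was not tested. Macrophage and monocyte markers summed to 175 to 312 CPM in the overexpressing and 429 to 482 in the control libraries, with 0 of 8 called. Dendritic cell markers summed to 115 to 124 against 171 to 174 CPM, with 1 of 2 tested called lower. Lymphoma and thymocyte markers summed to 8.60 to 13.4 against 2.31 to 6.44 CPM. The part of these markers in the Hspb1 value was not tested.

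Bcl6-overexpressing OT-I cells gave the largest number of calls among the members, in a contrast that asks what added Bcl6 changes in the same kind of cell. Of the 8 ER members 6 were lower with Bcl6, and Hspe1, Hspb1, Dnajc15, Dnajc19 and Hsp90ab1 were higher. In all, 29 of 64 members differed, 11 higher and 18 lower, against 48.8% of all 9669 genes (25.4% higher and 23.4% lower). The median of the members was -0.23 and that of all genes 0.002. Members made up 2.82 to 2.83% of the counts in the controls and 2.27 to 2.48% in the overexpressing libraries. Other settings changed the split between directions, to 10 higher and 23 lower with total counts, 9 and 34 with limma on TPM (median of all genes -0.32), 14 and 12 with limma on log2(FPKM + 1), and 15 and 14 with trends in coding length and GC content removed. Without control replicate 1, 19 members were called.

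Length and GC content moved with the change over the whole transcriptome, and their values stand here because they touch most of what follows. When genes were cut into 5 equal bins, the bin of the shortest coding sequences (90 to 717 nucleotides) was high: the median log2 fold change of all genes was 0.72, with 51.6% higher and 15.4% lower, and the 11 members there were 6 higher and 1 lower. In the bin of lowest GC content (31.9 to 44.6%), the median of all genes was -0.56, with 8.50% higher and 49.1% lower, and of 13 members 2 were higher and 7 lower. In the bin of highest GC content (56.0 to 72.9%) the median was 0.64. Across genes, Spearman's correlation of the log2 fold change with GC content was 0.506 over all 9533 genes and 0.403 over 62 members, and with coding length -0.2 and -0.347. A fit in which both trends were removed was therefore added after these values were seen, and its log2 fold changes are given below as the value with trends removed. Whether the trends come from the cells or from the libraries was not tested.

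**Figure D3:**
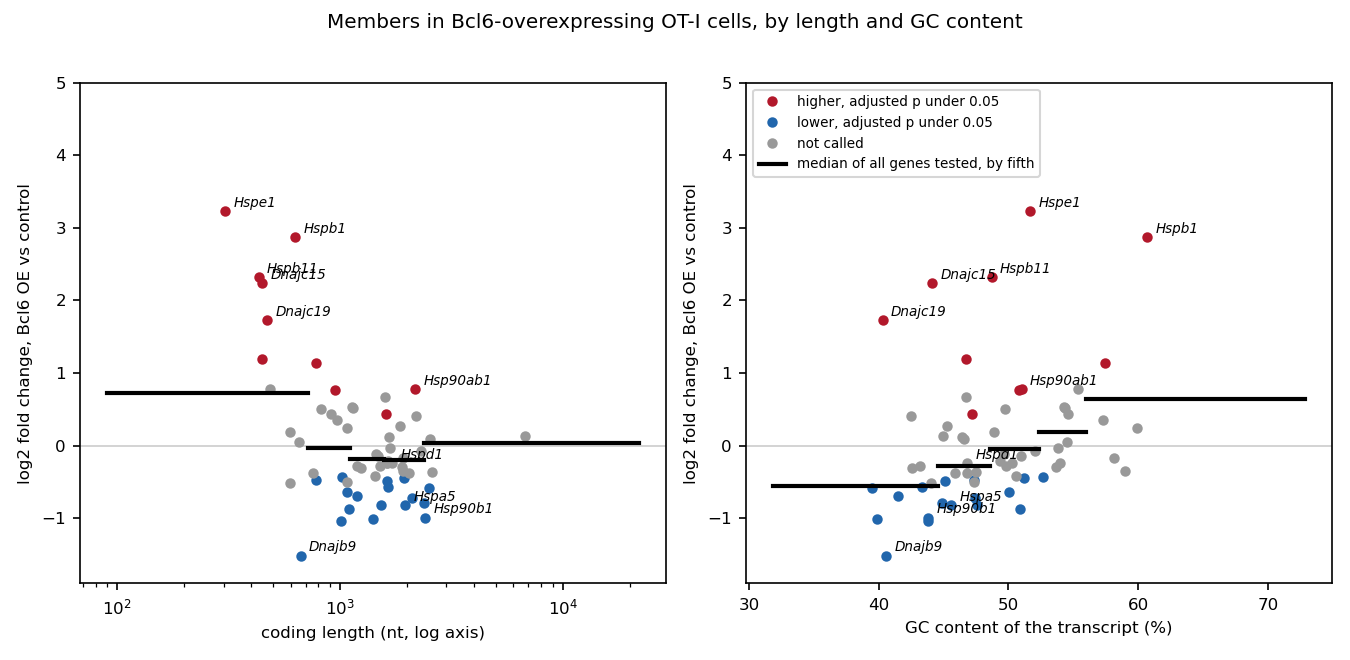
Log2 fold change of the 62 members with a length and GC value in Bcl6-overexpressing against control OT-I cells by coding length (left, nucleotides, log axis) and by GC content of the transcript (right, percent), coloured by call, with black lines at the median of all genes in each of 5 bins. The members called higher lie mostly among the shortest coding sequences, and the medians of all genes are 0.72, -0.029, -0.19, -0.20 and 0.029 from the shortest to the longest bin and run from -0.56 at the lowest to 0.64 at the highest GC content.

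Of the 8 members given an ER role, 6 were lower in Bcl6-overexpressing cells and none higher, where 23.4% of all genes were lower and 25.4% higher. In the bin of lowest GC content, which holds Dnajb9, Hsp90b1, Hspa13 and Dnajc3, 49.1% of all genes were lower. Dnajb9, a J protein that represses the stress sensor IRE1, measured 28.2 and 51.8 CPM in the overexpressing and 121 and 108 in the control libraries (log2 fold change -1.52 ± 0.23 (SE), adjusted p = 2e-05, and -1.26 with trends removed). Hsp90b1 measured 379 and 566 CPM in the overexpressing and 958 and 922 in the control libraries, with overexpressing libraries that differed from each other but both lay below the controls (log2 fold change -0.99 ± 0.19 (SE), adjusted p = 0.00021, -0.43 with trends removed). Hspa5 measured 1851 and 2037 CPM in the overexpressing and 3493 and 3392 in the control libraries (log2 fold change -0.82 ± 0.17 (SE), adjusted p = 0.0005, -0.30 with trends removed). Dnajb11 measured 178 and 217 CPM in the overexpressing and 312 and 305 in the control libraries (log2 fold change -0.64 ± 0.17 (SE), adjusted p = 0.0039), and was -0.46 with trends removed. These 4 stayed past the threshold with trends removed. Hspa13, an ER-associated HSP70 (-1.01, adjusted p = 0.0012), and Dnajc10 (-0.79, adjusted p = 0.0014) did not, at -0.15 and -0.26. Dnajc3 (-0.29, adjusted p = 0.16) and Dnajc1 (0.12, adjusted p = 0.61) were not called. The Dnajb11 call was lost when 1 library was left out (-0.63 without control replicate 1).

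The wider ER list went both ways, where 23.4% of all genes were lower and 25.4% higher. Of 18 genes, 7 were lower, among them the lectin chaperone Canx (-0.86, adjusted p = 0.00049), Pdia3 (-0.84, adjusted p = 0.00057) and Xbp1 (-0.80, adjusted p = 0.00055), the transcription factor that IRE1 activates. Another 5 were higher, among them Syvn1, a ubiquitin ligase of ER-associated degradation (1.19, adjusted p = 7.5e-05), the secreted factor Manf (1.08, adjusted p = 0.00015) and Ddit3 (1.01, adjusted p = 0.00033), which encodes CHOP of the PERK arm. With trends removed, Canx at -0.14 and Ddit3 at -0.14 were not called, and Ddit3 changed sign. Of the genes named, Pdia3 (-0.37), Xbp1 (-1.04), Syvn1 (0.77) and Manf (0.42) were still called. Others were called only with trends removed: Calr (0.44) and Edem1 (0.63) higher and P4hb (-0.41) lower. Among ER exchange factors, counted in a separate list, Hyou1 was higher (1.03, adjusted p = 0.00016, 0.87 with trends removed) and Sil1 was not called (-0.096, adjusted p = 0.73). Proliferation genes were 9 lower and 2 higher of 15, with 3468 to 3578 CPM in overexpressing and 4980 to 5053 in control libraries, and their part in the ER values was not tested.

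Hspe1, the HSP10 lid, was higher in Bcl6-overexpressing cells. It measured 209 and 239.7 CPM in the overexpressing and 27.1 and 20.6 in the control libraries (log2 fold change 3.23 ± 0.20 (SE), adjusted p = 4e-11), and was 1.51 with trends removed. Hspd1, whose promoter window holds the same matches to the heat shock element, measured 452 and 573 CPM in the overexpressing and 598 and 617 in the control libraries and was not called (log2 fold change -0.25 ± 0.17 (SE), adjusted p = 0.25). The CPM ratio of Hspe1 to Hspd1 was 0.462 and 0.418 in overexpressing and 0.045 and 0.033 in control libraries, while in the TILs it was lowest in Bcl6+ libraries, at 0.118 and 0.122, with 0.176 and 0.170 in DN and 0.127 and 0.147 in TIM-3+ libraries. The sources used here do not state whether counting used the strand, so reads from the overlapping ends of Hspe1 and Hspd1 cannot be told apart.

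Of other mitochondrial members with short coding sequences, Dnajc15 and Dnajc19 rose as well. Dnajc30, a mitochondrial J protein counted here among the J proteins, did not. It measured 9.27 and 15.5 CPM in the overexpressing and 14.5 and 9.57 in the control libraries. Dnajc15, a J protein of the inner membrane, measured 230.3 and 227 CPM in the overexpressing and 55.1 and 41.8 in the control libraries (log2 fold change 2.24 ± 0.19 (SE), adjusted p = 4e-09, 1.67 with trends removed). Dnajc19, a J protein of the import motor, measured 38.9 and 45.6 CPM in the overexpressing and 13.1 and 12.3 in the control libraries (log2 fold change 1.73 ± 0.24 (SE), adjusted p = 5.1e-06, 1.45 with trends removed). Hspa9 measured 259 and 298 CPM in the overexpressing and 353 and 374 in the control libraries and was not called (-0.38, adjusted p = 0.062), nor were Dnaja3 (-0.42, adjusted p = 0.056) and Dnajc11 (-0.035, adjusted p = 0.89). Of the 5 genes of mitochondrial quality control, 2 were higher and 2 lower, beside 25.4% higher and 23.4% lower of all genes.

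**Figure D4:**
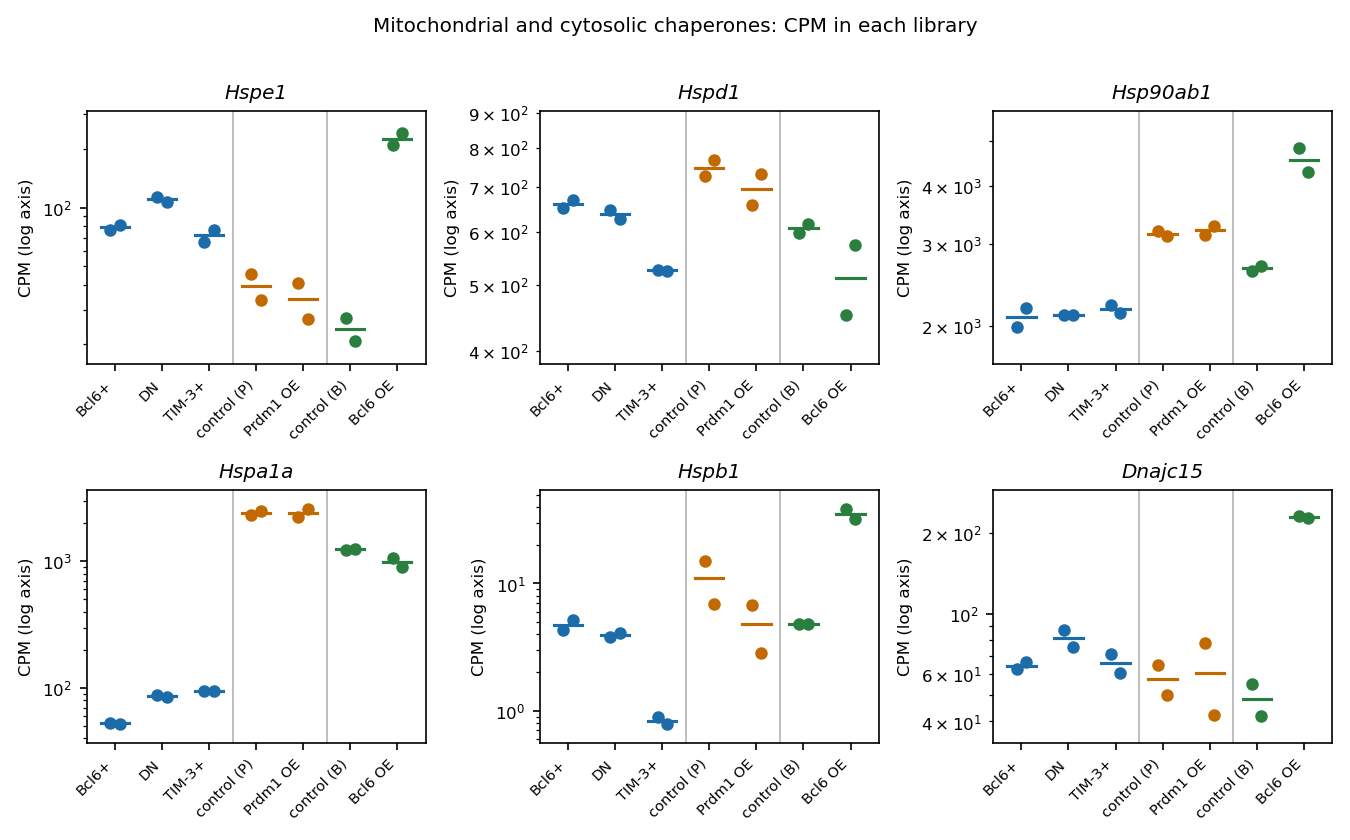
CPM (log axis) of 2 mitochondrial chaperonin genes, a mitochondrial J protein and 3 cytosolic chaperones in each library, with points for libraries, bars for group means and group names as in the plot of ER chaperones. Hspe1, Hsp90ab1, Hspb1 and Dnajc15 were higher in both Bcl6-overexpressing libraries than in both of their controls, and Hspd1 was not called there.

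Of the cytosolic HSP90 pair, the constitutive member rose. Hsp90ab1 (chromosome 17, 45567775 to 45573271, minus strand) measured 4821 and 4286 CPM in the overexpressing and 2631 and 2697 in the control libraries (log2 fold change 0.77 ± 0.17 (SE), adjusted p = 0.00098, 0.94 with trends removed). Hsp90aa1 measured 1697 and 2020.2 CPM in the overexpressing and 1491 and 1323 in the control libraries (log2 fold change 0.40 ± 0.17 (SE), adjusted p = 0.061), short of the threshold, and 1.09, past it, with trends removed. Of 5 HSP70 genes, 2 were lower and none higher, beside 23.4% lower and 25.4% higher of all genes. Hspa14 measured 154 and 169.9 CPM in the overexpressing and 299.9 and 274 in the control libraries (log2 fold change -0.82 ± 0.17 (SE), adjusted p = 0.00041, -0.39 with trends removed). Hspa8 measured 4688 and 5209 CPM in the overexpressing and 6816 and 6643 in the control libraries (-0.44, adjusted p = 0.04, -0.27 with trends removed). Hspa1a measured 1057 and 898 CPM in the overexpressing and 1227 and 1256 in the control libraries and was not called (-0.34, adjusted p = 0.098), but it passed at -0.88 with trends removed. Hspa1b held 9.55 to 15.8% of the counts of that near-identical pair in the OT-I libraries. The Hspa8 call was lost when 1 library was left out (-0.43 without control replicate 1, -0.47 without control replicate 2).

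Of the 11 listed exchange factors and CHIP, 5 were higher and 0 lower, beside 25.4% higher and 23.4% lower of all genes. They were led by Bag1 (2.01, adjusted p = 1.3e-06) and Bag6 (1.47, adjusted p = 5.8e-06), which hold clients for degradation, at 1.88 and 0.66 with trends removed. With trends removed, Bag2 (-0.73) and Stub1, the CHIP gene (-0.64), were called lower. Among the members, Hspa4l was lower (-0.59, adjusted p = 0.019), and Hsph1 (-0.37, adjusted p = 0.077), Hspa4 (0.086, adjusted p = 0.7) and Hspbp1 were not called. With trends removed Hspa4l was 0.20 and Hspa4 was called at 0.49. The Hspa4l call was lost when 1 library was left out (-0.44 without control replicate 1, -0.38 without overexpressing replicate 1). Of the HSP90 cochaperones 1 was higher and 3 lower of 14. Hsf2 was higher (0.86, adjusted p = 0.006), and Hsf1 was not called (0.28, adjusted p = 0.18).

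Of 7 CCT subunits 3 were lower and 1 higher, beside 23.4% lower and 25.4% higher of all genes, and Cct3, Cct5 and Cct7 were not called. Cct8 measured 381 and 458 CPM in the overexpressing and 629 and 624 in the control libraries (-0.58, adjusted p = 0.0078), Cct6a was at -0.52, adjusted p = 0.013 and Cct4 at -0.49, adjusted p = 0.022, all lower, while Cct2 was higher at 381 and 386 CPM in the overexpressing and 295 and 271 in the control libraries (0.44, adjusted p = 0.032). Tcp1 was lower (-0.55, adjusted p = 0.013). Of the prefoldins, which hand actin and tubulin to CCT, Pfdn1 (3.04, adjusted p = 1e-09), Pfdn5 (3.01, adjusted p = 3.3e-10), Pfdn6 (2.72, adjusted p = 1.7e-09) and Pfdn2 (2.64, adjusted p = 1.7e-08) were higher and Vbp1, the prefoldin subunit 3 gene, was lower (-1.52, adjusted p = 1.3e-05). With trends removed, Pfdn1 was 1.68, Pfdn5 1.79, Pfdn6 1.22, Pfdn2 1.89 and Vbp1 -1.19, all still called, while Tcp1 at -0.11 was not. With trends removed, Cct8 was 0.10, Cct4 0.077 and Cct2 0.89, so the first 2 changed sign. The CCT calls were lost in Cct2 (0.49 without control replicate 1, 0.37 without control replicate 2), Cct4 (-0.52 without control replicate 1, -0.48 without control replicate 2), Cct6a (-0.52 without control replicate 1, -0.54 without control replicate 2) and Cct8 (-0.58 without control replicate 1, -0.59 without control replicate 2).

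Of 26 J proteins, 6 were lower and 3 higher, beside 23.4% lower and 25.4% higher of all genes, so the count is no result about J proteins. Dnajb4 measured 46.5 and 67.7 CPM in the overexpressing and 117 and 119 in the control libraries (log2 fold change -1.04 ± 0.20 (SE), adjusted p = 0.00023, -0.53 with trends removed). Dnajb6, which keeps polyglutamine proteins from aggregating and whose window holds a match to the heat shock element, measured 66.7 and 85.5 CPM in the overexpressing and 148 and 132 in the control libraries (log2 fold change -0.88 ± 0.19 (SE), adjusted p = 0.00061, -0.73 with trends removed). Dnajb1 (-0.44, adjusted p = 0.033, -0.47 with trends removed) and Dnajc14 (-0.72, adjusted p = 0.0022) were lower too. Dnaja1 measured 314 and 538 CPM in the overexpressing and 714 and 663 in the control libraries, so the overexpressing libraries lay far apart (-0.69, adjusted p = 0.0082), and it was 0.017 with trends removed. Dnajc24, of the diphthamide pathway (1.19, adjusted p = 0.0027), and Dnajc4 (1.14, adjusted p = 0.0052) were higher but fell short of the threshold at 0.45 and 0.47 with trends removed, and a trend in gene length alone left Dnajc4 at -0.071. Dnajb13, an axonemal J protein, was also higher (0.77, adjusted p = 0.011). Without 1 library the calls were lost in Dnajb1 (-0.38 without control replicate 1, -0.51 without control replicate 2), Dnajb13 (0.69 without control replicate 1, 0.83 without control replicate 2) and Dnajc4 (0.86 without control replicate 2).

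Hspb1 measured 38.8 and 32.1 CPM in the overexpressing and 4.81 and 4.83 in the control libraries (log2 fold change 2.88 ± 0.28 (SE), adjusted p = 3.2e-08, 1.55 with trends removed), and Hspb11 measured 6.43 and 6.27 CPM in the overexpressing and 1.54 and 0.995 in the control libraries (2.32, adjusted p = 0.00029, 1.41 with trends removed). Markers of other cells moved in the same libraries. Macrophage and monocyte markers were higher in Bcl6-overexpressing cells for 8 of 8, at 549 to 642 against 147 to 150 CPM, and neutrophil markers for 2 of 2 tested, at 27.9 to 28.1 against 1.04 to 3.22 CPM. Erythroid markers were higher for 3 of 3 tested, at 15.7 to 21.0 against 0.991 to 1.18 CPM, with Hba-a1, Hba-a2 and Hbb-bs listed at 0 in both control libraries. Other markers were lower in overexpressing libraries. Stromal and endothelial markers summed to 64.8 to 68.1 against 114 to 122 CPM and dendritic cell markers to 136 to 154 against 189 to 196 CPM. In each of these lists 1 of 2 tested was called lower. Lymphoma and thymocyte markers, none of them tested, summed to 0 to 0.091 against 2.79 to 3.07 CPM. The part of all these markers in the changes of Hspb1, Hspe1 and the other members was not tested. CD8 T cell markers summed to 5423 to 6172 CPM in overexpressing and 4344 to 4832 in control libraries.

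The values of single members can be set side by side across the experiments. For Hsp90b1 the log2 fold change was -0.82 in Bcl6+ against TIM-3+ TILs, -0.99 with Bcl6 and 0.35 with Prdm1 overexpressed, the last not called. For Dnajb11 these values were -0.74, -0.64 and 0.30, and for Hspa5 -0.24, -0.82 and 0.33. Dnajb9 differed, at 0.049 in the TILs, where it was not called, and -1.52 with Bcl6. Hspb1 was higher in Bcl6+ than in TIM-3+ TILs (2.49) and with Bcl6 overexpressed (2.88), and was not called in Bcl6+ against DN TILs (0.26). Dnajb4 and Dnaja1 went opposite ways in the main fits, at 0.48 and 0.42 in the TILs and -1.04 and -0.69 with Bcl6. All these values are without removal of length and GC trends. With trends removed, Dnaja1 was 0.017 with Bcl6 overexpressed, so its opposite direction did not hold. Dnajb4 was then -0.53, Hsp90b1 -0.43, Dnajb11 -0.46 and Hspa5 -0.30, smaller but with the sign kept. The difference between the effects in separate experiments was not tested, since their cells, aligners and tables differ.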

How the data were processed

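The 14 libraries were grouped by the sample titles into 7 groups of 2 in 3 experiments. Per the file headers, the authors deposited a raw count and an FPKM value for every listed gene in each library. Per the submitters' processing notes, the OT-I data involved RSEM, DESeq2, HISAT2 and featureCounts and the TIL data DESeq2, edgeR, Subread, Bowtie2 and featureCounts, on the build mm10, with versions and strand setting left unstated. The deposited counts summed to between 18309162 and 22322079 per library. The tables of the TIL and Bcl6 experiments hold no gene whose counts sum to less than 20. Deposited FPKM values imply library sizes other than these sums, so they served for levels, for the filter and for alternatives.

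Counts were tested with the edgeR 4.0.16 quasi-likelihood test (R 4.3.3) after TMM scaling, on genes whose FPKM averaged 1 or more in the libraries fitted, two-sided, with Benjamini-Hochberg adjustment over all genes tested and a threshold of 0.05. All 6 TIL libraries entered 1 model, and the 4 libraries of each OT-I experiment a separate one. CPM values are counts per 1e+06 scaled by TMM. Alternatives used DESeq2 1.42.0, RLE factors, total counts, limma 3.58.1 on log2 FPKM (pseudocount 1 or 0.1) or TPM, other filters, a replicate block, libraries left out, and 2 fits added after the data were seen. In these 2 fits, loess trends over gene length, or over coding length and GC content, were removed through offsets in edgeR. The trends were fitted in each library to a gene's log2 CPM less its mean over the libraries. Steps were tested on simulated data.

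Members, roles and gene lists were chosen with earlier results of these data known. Members were named if they were among the 12 with the largest change in either direction that were called with groups not overlapping, among the 10 most abundant of an experiment, or on a list of 22 main chaperones; other members and list genes were named after their values were seen. The values of 1 member are not reported here. Promoter windows came from RefSeq on GRCm38.p6, and gene spans and coding lengths from GENCODE M21 on GRCm38.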

Additional observations from a re-analysis of the deposited data

How the results depend on the processing

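Of the members named in the report, 12 of 21 calls between Bcl6+ and TIM-3+ TILs held in every alternative run, 1 of 12 between Bcl6+ and DN, 8 of 18 between TIM-3+ and DN, and 14 of 28 with Bcl6 overexpressed. Other settings moved the TIL results: Bcl6+ against TIM-3+ cells gave 33 members called with total counts and 34 with TPM, with medians of 0.24 and 0.29, and TIM-3+ against DN cells gave medians of -0.13 and -0.14. The Bcl6+ against TIM-3+ median was also -0.013 on log2(FPKM + 1), -0.028 on log2(FPKM + 0.1), -0.0011 with no filter and 0.0074 with filterByExpr. In that comparison total counts gave Hsp90ab1 0.13 and Cct7 0.0013, and TPM gave Hsp90ab1 0.20, Cct7 0.076, Hspa8 0.048, Cct2 0.028 and Hspa5 0.018, all reversed. Bcl6+ against DN cells gave 7 members called with coding length and GC trends removed.

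With Prdm1 overexpressed, the genes called were 586 with DESeq2, 275 with RLE factors, 294 with total counts, 609 with TPM (1 member), 44 with no filter (member median -0.15), 50 with filterByExpr (median -0.12), 492 with the gene length trend removed and 264 with coding length and GC trends removed. With Bcl6 overexpressed the member median was -0.54 with TPM, -0.12 on log2(FPKM + 1), -0.14 on log2(FPKM + 0.1), -0.12 with no filter, -0.13 with filterByExpr and 0.016 with coding length and GC trends removed, a setting that also reversed Cct4 (0.077), Cct8 (0.10), Hspa4l (0.20) and Dnaja1 (0.017). Removal of the gene length trend reversed Dnajc4 (-0.071). The cause was not tested in any of these.

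With each library left out in turn, the Bcl6+ against TIM-3+ member median ranged from 0.0095 to 0.083. Bcl6+ against DN cells gave 735 to 1485 genes and 2 to 10 members, and TIM-3+ against DN cells 1696 to 2947 genes and 10 to 19 members. The Prdm1 comparison gave 3 to 643 genes, and the Bcl6 comparison 19 to 37 members with medians from -0.24 to -0.12. Here 1 group is left with a lone library, assumed to vary like the rest. Replicate numbers are not stated to mark shared animals. The deviations of same-numbered libraries correlated clearly only with Prdm1 overexpressed, at 0.323. The correlations were 0.024, 0.00074 and 0.032 in the TILs and -0.064 with Bcl6 overexpressed. The replicate block gave 22, 9 and 17 members in the TIL comparisons and 26 with Bcl6 overexpressed, but 1659 genes and 5 members with Prdm1 overexpressed. With 2 libraries a group, power is limited, and low members such as Hspb1 and Dnajc6 rest on few counts.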

Other observations

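HSP90 cochaperones and mitochondrial chaperones outside the symbol rule were not described above. In TILs the kinase adaptor Cdc37 (-0.34, adjusted p = 0.0021), p23 from Ptges3 (-0.44, adjusted p = 0.0037) and Sugt1 (-0.62, adjusted p = 0.00052) were lower in Bcl6+ than in TIM-3+ cells, and the immunophilin Fkbp4 (0.47, adjusted p = 0.00012), the HSP70-HSP90 linker St13 (0.39, adjusted p = 0.0003) and the myosin chaperone Unc45a (0.34, adjusted p = 0.032) were higher. Trap1, the HSP90 of mitochondria, was higher in Bcl6+ than in TIM-3+ cells (0.32, adjusted p = 0.037) and lower with Bcl6 overexpressed (-0.54, adjusted p = 0.01).

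In Bcl6-overexpressing OT-I cells the subunits of the mitochondrial protease ClpXP went opposite ways. Clpp, the protease chamber, measured 103 and 76.5 CPM in the overexpressing and 33.5 and 22.2 in the control libraries (1.69, adjusted p = 4e-06), and Clpx, its unfolding ring, measured 37.2 and 38.6 CPM in the overexpressing and 83.9 and 93.7 in the control libraries (-1.23, adjusted p = 2.6e-05). The HSP90 cochaperone Chordc1 was lower (-1.02, adjusted p = 0.00015), with St13 (-0.74, adjusted p = 0.0014) and the immunophilin Ppid (-0.72, adjusted p = 0.0039). With length and GC trends removed, Clpp (1.01), Clpx (-0.63) and Trap1 (-0.45) were still called, and Chordc1 (-0.084), St13 (-0.13) and Ppid (-0.026) were not.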
